A study of Mus musculus with 6 samples.

Results

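Imprinted genes are read wholly or mainly from 1 parental copy, a choice set by methylation laid down in the egg or sperm. They lie in clusters, or domains, each governed by an imprinting control region, and several of them set the growth of the embryo: Igf2 drives it, while Cdkn1c, Grb10 and Igf2r restrain it. In the fetal lung many are read at high levels and are turned down after birth. A list of 50 imprinted mouse genes was followed, of which 44 had an array feature (a set of probes) annotated with that gene alone, out of 19946 genes tested. All 44 had a single such feature. H19, Kcnq1ot1 and Zrsr1 had none, and Gnas, Snrpn and Ube3a shared theirs with other genes. An array of this kind sums both parental copies, so it does not show which allele was read.

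RNA came from whole lungs of E14.5 embryos. The 3 controls carried Shh-Cre, in which the Shh locus drives Cre recombinase in the endoderm that becomes the lung epithelium. The 3 mutant embryos carried Shh-cre with flox/flox alleles (both copies flanked by loxP sites) of Foxp1, Foxp2 and Foxp4, a set of forkhead transcription factor genes, and the study asked how these factors bear on endoderm identity in early lung. The mutants' genotype label lists Foxp1 in duplicate and lacks Foxp2, which the series title names, and the design text calls these embryos DKO, so that the deletion of Foxp2 was taken from the title. All embryos were of mixed C57BL/6 and 129X1 background, so the 6 shared Shh-Cre and strain mix. Shh-Cre is not expected to reach the mesenchyme, vessels and nerves of the lung, and where it acted in these lungs was not measured.

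Values are log2 units of the robust multi-array average (RMA), in which 1 unit is a 2-fold change, and a difference is the mutant mean less the control mean, given with its standard error (SE) from limma's moderated fit over 3 arrays per group. A gene passed where its limma adjusted p (Benjamini-Hochberg, over all 19946 genes) was under 0.05. Foxp2 (-0.95) and Foxp4 (-0.64) were lower in the mutants and Foxp1, at -0.31, did not pass, with all mutant values below all control values for each. Of the marker lists, 5 of 7 epithelial genes, 5 of 5 smooth muscle genes and 3 of 3 measured red cell genes (5 listed) were lower. Higher were 2 of 4 macrophage genes, 1 of 4 mesothelial genes (Lrrn4, 0.67) and 1 of 7 mesenchymal genes. Over all genes tested, 3.84% were higher and 3.83% lower. A single call in a list this short says little about its cell type. The median of 10 heart muscle genes stood 1.33 above the control mean in mutant 1 and at -0.29 and -0.35 in mutants 2 and 3, and none of the 10 passed. The log2 of the summed level was 13.32 to 13.37 in controls and 12.64 to 12.93 in mutants for the epithelial genes, 13.06 to 13.11 and 11.80 to 12.08 for smooth muscle, and 11.81 to 11.88 and 10.68 to 13.20 for heart muscle. In whole lung, fewer cells of a type and less RNA per cell cannot be told apart. The part of these shifts in the results on imprinted genes was not tested, except where leaving out an array is reported.

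Of the 44 imprinted genes, 2 were higher (Asb4 and Peg10) and 3 were lower (Nnat, Htr2a and Cdkn1c) in the mutant lungs. The other 39 did not pass. Without control 2 or control 3 the count of lower members fell to 1, and without mutant 3 the count of higher members was 4. The 5 calls are 11.4% of the members, against 7.66% of all genes tested, where 3.84% were higher and 3.83% lower. Asb4, Peg10 and Nnat also changed at least 1.5-fold, as 2.75% of all genes did. The median difference over the members was 0.014, and over all genes -0.0055. Mutant and control values did not overlap for 14 members (31.8%), 8 with the mutants above and 6 with the mutants below, against 25.9% of all genes, where 13.4% had the mutants above and 12.6% below. By the allele usually read, 1 of 22 maternal genes was higher and 2 lower, and 1 of 19 paternal genes was higher and 1 lower. The remaining 3 (Grb10, Ddc and Blcap), where the allele read depends on tissue or transcript, held no call. The allele read can differ by tissue for other members too, and which copy was read in these lungs was not measured. Members were chosen with earlier results of these data known, so these shares describe the list only.

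**Figure D1:**
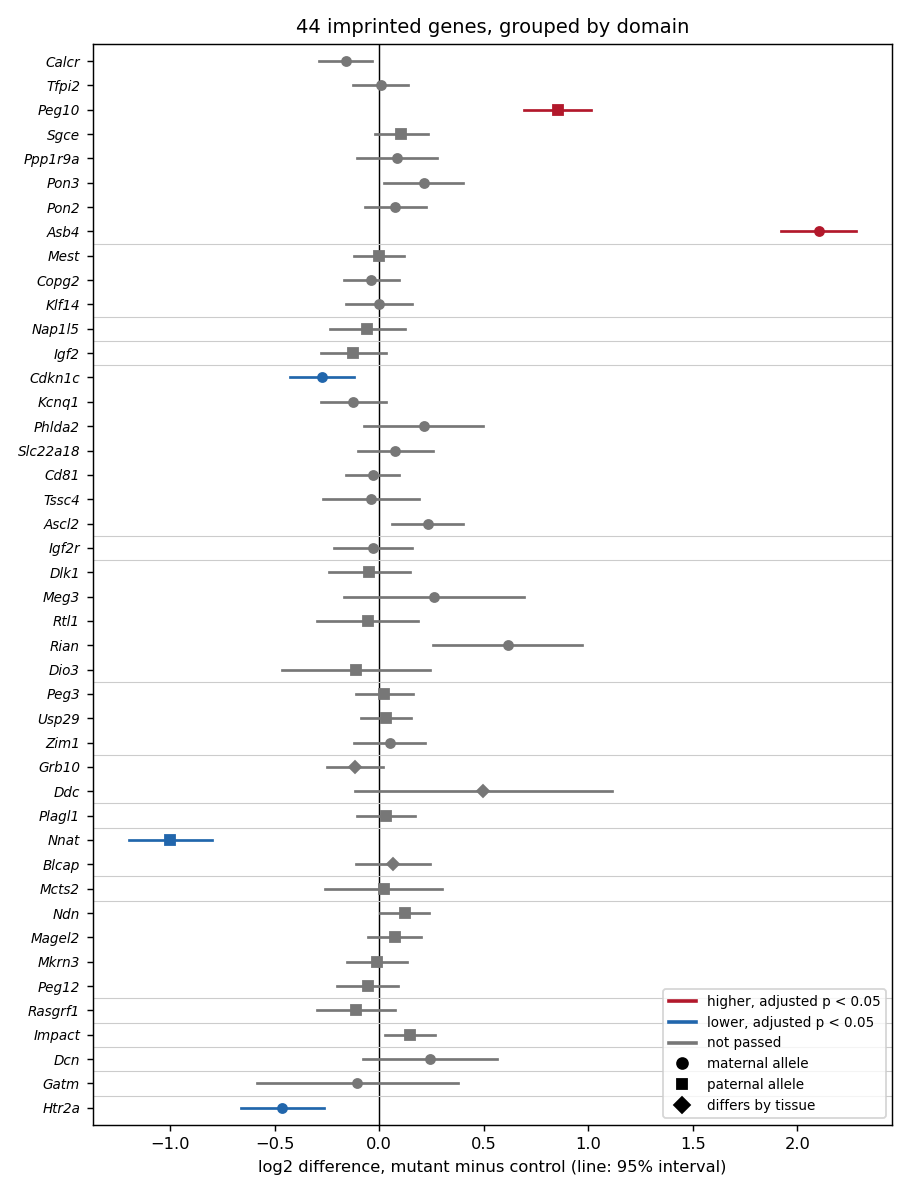
Log2 difference, mutant minus control, with its 95% interval for the 44 measured imprinted genes, grouped by domain and marked by the allele usually read. Asb4 (2.10) and Peg10 (0.85) lie to the right and Nnat (-0.999), Htr2a (-0.46) and Cdkn1c (-0.27) to the left, while the intervals of most others lie close to 0.

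The 8 genes Calcr, Tfpi2, Sgce, Peg10, Ppp1r9a, Pon3, Pon2 and Asb4 share the Peg10 domain on chromosome 6, in that order in the RefSeq annotation (GRCm38.p6). Peg10 and Sgce are read from the paternal copy, from start sites that share the control region, and the others mainly from the maternal copy. The domain's strongest change was that of Asb4, at its far end. The RefSeq promoter windows of Asb4, from 250 bases before to 50 after each start site, are shown because this gene rose most, beside that of Nnat, the member that fell most. Capitals mark CpG, the dinucleotide at which DNA is methylated. The Asb4 windows lie at chr6:5383136-5383435 and chr6:5390160-5390459 (GRCm38.p6, plus strand) and the Nnat window at chr2:157559828-157560127 (plus strand).
Asb4, start site A: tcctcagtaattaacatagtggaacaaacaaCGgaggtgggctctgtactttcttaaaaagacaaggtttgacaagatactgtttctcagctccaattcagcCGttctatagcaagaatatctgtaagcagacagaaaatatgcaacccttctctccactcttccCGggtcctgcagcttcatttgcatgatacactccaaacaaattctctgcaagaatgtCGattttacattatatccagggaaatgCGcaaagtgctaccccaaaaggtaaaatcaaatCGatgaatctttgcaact
Asb4, start site B: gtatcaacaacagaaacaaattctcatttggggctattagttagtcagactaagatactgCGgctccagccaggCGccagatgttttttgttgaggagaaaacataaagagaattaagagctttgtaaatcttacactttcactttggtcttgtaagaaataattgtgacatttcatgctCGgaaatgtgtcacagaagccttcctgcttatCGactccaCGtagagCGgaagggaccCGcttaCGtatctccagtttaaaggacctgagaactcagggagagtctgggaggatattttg
Nnat: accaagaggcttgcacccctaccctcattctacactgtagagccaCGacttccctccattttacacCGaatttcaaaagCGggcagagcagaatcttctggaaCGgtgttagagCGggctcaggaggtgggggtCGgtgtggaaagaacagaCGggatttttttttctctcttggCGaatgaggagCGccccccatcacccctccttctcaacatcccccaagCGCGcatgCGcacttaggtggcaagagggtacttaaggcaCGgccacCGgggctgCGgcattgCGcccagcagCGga
These windows hold 6, 8 and 17 CpG, where the median over 32851 windows of the table was 7 and over the 60 windows of 41 members 13.5. No window was available for Peg10, Sgce, Cdkn1c, Kcnq1, H19, Klf14, Rtl1, Dcn and Impact. These genes, the called Peg10 and Cdkn1c among them, were therefore not searched. The forkhead sequences TGTTTAC and TGTTTAT, searched on both strands, are not in the windows of Asb4, Nnat or Htr2a. TGTTTAC was in windows of 3 members (Dlk1, Mkrn3 and Nap1l5) and in 3.65% of all windows, and TGTTTAT in windows of 2 members (Nap1l5 and Zrsr1) and in 4.60% of all windows. The hexamer TGCCGC, which the imprint-protecting protein ZFP57 binds when it is methylated, was in 14 of 60 member windows (23.3%), that of Nnat included, against 11.6% of all windows. These windows belong to 13 members. The hexamer itself holds a CpG, and member windows hold more CpG (median 13.5 against 7). The shares were not adjusted for this, so they do not show an excess of the hexamer. A match is a description of letters and not a binding site.

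Asb4 encodes an ankyrin-repeat protein with a SOCS box, the substrate receptor of a ubiquitin ligase, known from differentiating vessels and the placenta. Its feature (10536324) read 8.60, 8.67 and 8.44 in the control arrays against 10.70, 10.58 and 10.74 in the mutant arrays. The groups lay far apart, with the lowest mutant well above the highest control. The group means were 8.57 ± 0.12 (SD, n = 3) and 10.67 ± 0.08, which is 4.29-fold or 2.10 ± 0.08 (SE) on the log2 scale (limma adjusted p = 8.27e-06). The 95% interval ran from 1.92 to 2.28. With any 1 array left out the difference stayed between 2.04 and 2.15. None of 6 endothelial marker genes passed, with a median difference of -0.09. All 6 differences were below 0, and for 3 the mutants lay wholly below the controls (50%, against 12.6% of all genes). The part of vessels in the Asb4 values was not tested.

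Peg10 encodes a protein derived from a retrotransposon and is needed for the placenta to form. Its feature (10536294) read 11.25, 11.18 and 11.09 in the controls against 12.11, 11.94 and 12.03 in the mutants, with no overlap. The difference was 0.85 ± 0.07 or 1.81-fold (limma adjusted p = 0.000313, 95% interval 0.69 to 1.01), and it stayed between 0.81 and 0.90 with any 1 array left out. Mutant 2 had the lowest mutant value of both Peg10 and Asb4. Sgce, the gene of epsilon-sarcoglycan, whose start site lies head to head with that of Peg10, read 10.19, 10.14 and 10.13 in the controls against 10.22, 10.25 and 10.31 in the mutants. All mutant values of Sgce were above the controls, but by only 0.11 ± 0.06 (adjusted p = 0.352, interval -0.02 to 0.23).

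**Figure D2:**
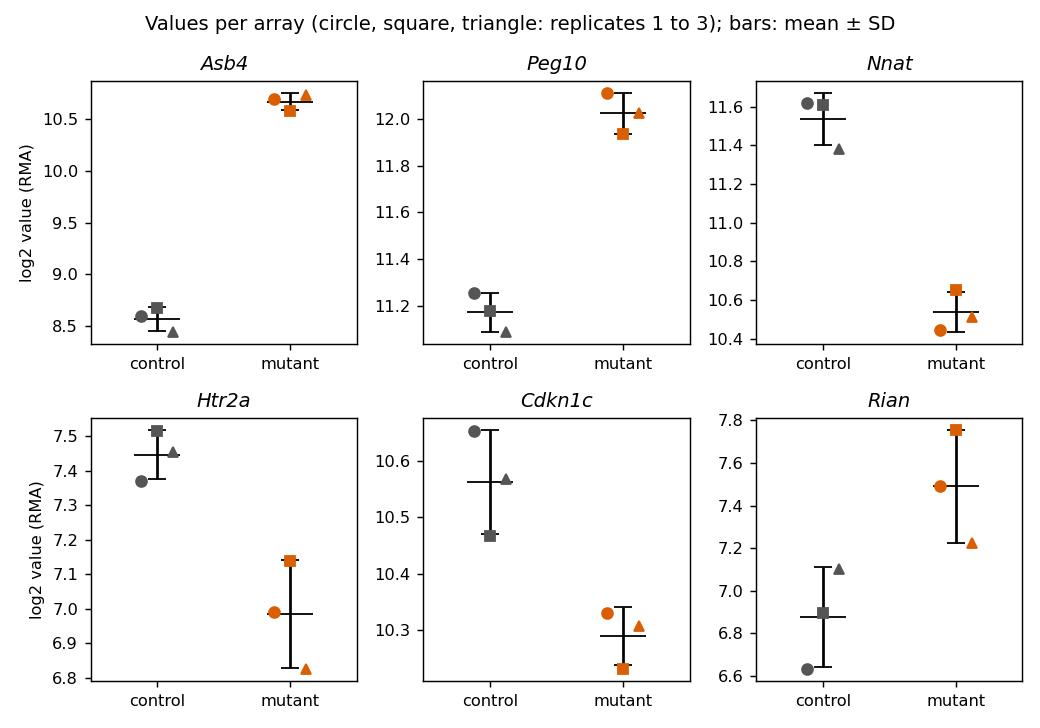
Log2 values of 6 imprinted genes in each of the 6 arrays, with the group mean and SD (n = 3), on a separate vertical scale for each gene that does not start at 0. Mutant values lie wholly above control values for Asb4, Peg10 and Rian and wholly below them for Nnat, Htr2a and Cdkn1c.

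The 3 genes between Peg10 and Asb4 on the list did not pass. Ppp1r9a, which encodes the actin-binding scaffold neurabin, read 8.09, 8.23 and 8.18 in the controls against 8.39, 8.10 and 8.27 in the mutants (0.09 ± 0.08, adjusted p = 0.662). Pon3, a paraoxonase, read 7.57, 7.46 and 7.52 in the controls against 7.61, 7.90 and 7.68 in the mutants. The difference was 0.21 ± 0.08 (adjusted p = 0.193). The groups did not overlap for Pon3, whereas they did for Ppp1r9a. Its relative Pon2, next to Asb4, read 8.37, 8.35 and 8.37 in the controls against 8.34, 8.53 and 8.44 in the mutants (0.08 ± 0.06, adjusted p = 0.594).

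At the other end of the domain, Tfpi2, a gene for a protease inhibitor of the extracellular matrix, read 6.45, 6.40 and 6.52 in the controls against 6.497, 6.44 and 6.45 in the mutants (0.01 ± 0.06, adjusted p = 0.974). Calcr, the calcitonin receptor gene, read 5.86, 5.88 and 5.79 in the controls against 5.70, 5.66 and 5.69 in the mutants (-0.16 ± 0.05, adjusted p = 0.135). The mutants lay below the controls for Calcr, but its mean is within the range of olfactory receptor genes, which are silent in lung (95th percentile 5.93), so it is not shown to be read here. The 6 domain members that did not pass had differences from -0.16 to 0.21, and their 95% intervals had bounds from -0.29 to 0.40, which lie under the lower bounds of Peg10 and Asb4.

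Protein-coding genes that lie between these members, or are the 5 nearest on either side, were taken by position alone. Of 17 such genes, 14 were measured and 0 passed in limma, with differences from -0.29 to 0.27 and a median of 0.05. At an unadjusted limma p under 0.05 there were 3 of the 14, a share similar to the 3957 of all 19946 genes tested. Pdk4, a kinase that restrains the use of glucose and the next gene after Asb4, was at 0.18 ± 0.06 (adjusted p = 0.137). Its values were 6.61, 6.60 and 6.56 in the controls against 6.85, 6.68 and 6.79 in the mutants, which do not overlap. Bet1, a gene of vesicle transport named after its values were seen because its difference was the highest of these genes, was at 0.27 ± 0.09 (adjusted p = 0.142). Col1a2, the collagen gene that lies inside the domain and marks mesenchyme, was at -0.08 ± 0.13 (adjusted p = 0.821).

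**Figure D3:**
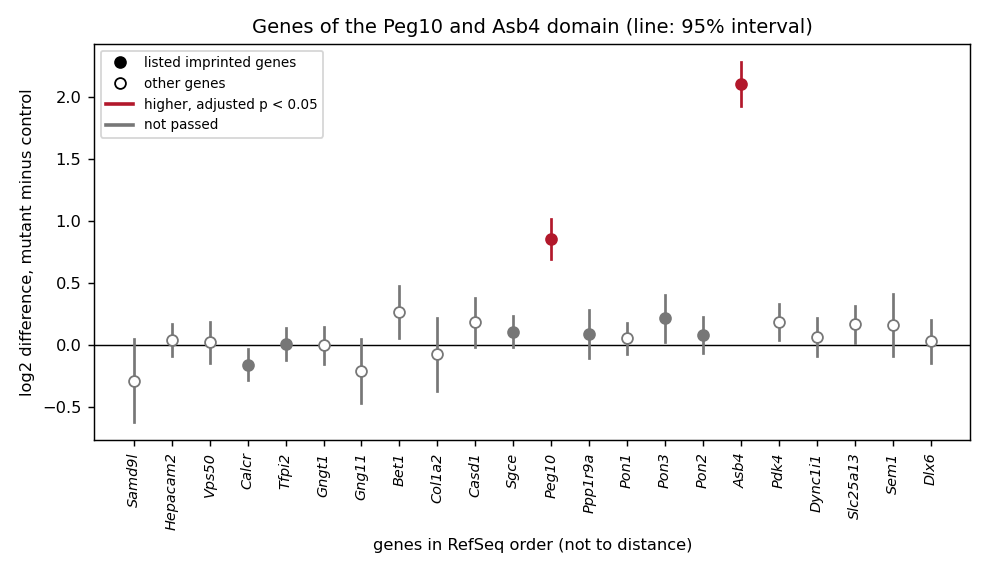
Log2 difference, mutant minus control, with its 95% interval for the 22 measured genes of the Peg10 and Asb4 domain and its flanks, in RefSeq order along chromosome 6. Asb4 (2.10) and Peg10 (0.85) stand above the other genes, whose differences lie between -0.29 and 0.27.

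Nnat, which encodes the small membrane protein neuronatin and is read from the paternal copy, was the imprinted gene that fell most. Its feature (10477986) read 11.62, 11.61 and 11.38 in the controls against 10.45, 10.65 and 10.51 in the mutants. Every mutant lay well below every control. The means were 11.54 ± 0.13 (SD, n = 3) and 10.54 ± 0.10, a fall of 2.00-fold or -0.999 ± 0.086 (SE) on the log2 scale (limma adjusted p = 0.000398, 95% interval -1.20 to -0.80). With any 1 array left out it stayed between -1.08 and -0.95. Blcap, the gene in whose intron Nnat lies, read 7.66, 7.70 and 7.68 in the controls against 7.74, 7.61 and 7.89 in the mutants. The difference was 0.07 ± 0.08 (adjusted p = 0.727) and its groups overlapped. None of the 5 neural marker genes measured, of 7 listed, passed (median -0.01). Of these, Tubb3 and Elavl4 had means within the range of the olfactory receptor genes and are not shown to be read here. The part of nerves, or of the fall in epithelial and smooth muscle genes, in the Nnat values was not tested.

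Htr2a encodes a serotonin receptor and is maternally read in mice. Its feature (10416406) read 7.37, 7.51 and 7.45 in the controls against 6.99, 7.14 and 6.83 in the mutants, with no overlap. The difference was -0.46 ± 0.09 (adjusted p = 0.016), and the call was lost without control 2 (adjusted p = 0.0762) or control 3 (adjusted p = 0.0725).

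Cdkn1c is the growth restrainer of the Kcnq1 domain on chromosome 7 and encodes the cell cycle inhibitor p57. Its feature (10569429) read 10.65, 10.47 and 10.57 in the controls against 10.33, 10.23 and 10.31 in the mutants. The mutants were all lower, by 0.27 ± 0.07 log2 units or 1.21-fold (adjusted p = 0.0462). The gene stood near the threshold, and leaving out any 1 array ended the call, with adjusted p from 0.0645 to 0.164. The other 6 measured genes of that domain did not pass. Phlda2, which restrains the placenta, was at 0.21 ± 0.12 and read 8.04 in mutant 3, above all other arrays. Ascl2, a transcription factor gene of the trophoblast, was at 0.23 ± 0.07 (adjusted p = 0.114), at levels within the range of the olfactory receptor genes. The potassium channel gene Kcnq1 was at -0.12, the transporter gene Slc22a18 at 0.08, the tetraspanin gene Cd81 at -0.03 and Tssc4 at -0.04.

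The Dlk1 to Dio3 domain on chromosome 12 holds protein-coding genes read from the paternal copy (Dlk1, Rtl1 and Dio3) and long noncoding RNAs read from the maternal copy (Meg3 and Rian), whose transcripts carry many microRNAs and small nucleolar RNAs. None of its 5 listed members passed. Rian read 6.63, 6.89 and 7.10 in the controls against 7.49, 7.75 and 7.22 in the mutants. The difference was 0.61 ± 0.15 or 1.53-fold (adjusted p = 0.0516). Mutant 3 lay only slightly above control 3. A second feature that Rian shares with a small nucleolar RNA gene read 8.19, 8.31 and 8.34 in the controls against 9.08, 9.45 and 8.92 in the mutants. Meg3 read 9.57, 10.31 and 10.30 in the controls against 10.32, 10.43 and 10.21 in the mutants (0.26 ± 0.19, adjusted p = 0.528), with control 1 standing below the other arrays. Dlk1, which encodes a membrane protein of the Notch ligand type, was at -0.05 ± 0.08, the retrotransposon-derived Rtl1 at -0.05 ± 0.10 and the thyroid hormone-inactivating enzyme gene Dio3 at -0.11 ± 0.15.

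After Rian's values were seen, every other gene tested that RefSeq places between Dlk1 and Dio3 was read out as well. These were 43 genes, 40 of them microRNA genes. Of the 43, 5 were higher (11.6%, against 3.84% of all genes), 0 were lower and 38 did not pass. The median difference was 0.19, against -0.0055 for all genes, and 37 differences were above 0 (86%, against 48% of all genes). Only 22 of the 43 had a mean above the olfactory receptor range, with a median difference of 0.18 and 17 above 0. The other 21 are not shown to be read here, and their median was 0.20. The mutants lay wholly above the controls for 15 (34.9%, against 13.4% of all genes) and wholly below for 0. These genes lie on shared transcripts and are not independent of each other. Taken against each gene's control mean, their median was -0.07, 0.03 and 0.07 in the control arrays against 0.13, 0.26 and 0.12 in the mutant arrays. This median was higher in every mutant than in every control, with mutant 2 highest and control 1 lowest. The number of the 43 genes above their control mean did not separate the groups, at 8, 25 and 31 in the controls and 40, 30 and 33 in the mutants. The count of 5 fell to 2 without control 1, control 2, control 3 or mutant 3, and was 8 without mutant 2.

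The genes past the threshold were Mir329, Mir300, Mir411, Mir379 and Mir485. Their mature microRNAs, as listed by RefSeq (GRCm38.p6), are shown with the seed (bases 2 to 8, the stretch that pairs with target messages) in capitals. The seed of the 3′ arm is the same in miR-379 and miR-411, and no other seed recurs among the sequences shown.
mmu-miR-329-5p: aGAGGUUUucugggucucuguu
mmu-miR-329-3p: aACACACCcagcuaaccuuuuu
mmu-miR-300-5p: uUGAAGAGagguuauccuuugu
mmu-miR-300-3p: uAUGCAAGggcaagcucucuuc
mmu-miR-411-5p: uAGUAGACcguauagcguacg
mmu-miR-411-3p: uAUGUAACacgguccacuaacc
mmu-miR-379-5p: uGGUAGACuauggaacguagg
mmu-miR-379-3p: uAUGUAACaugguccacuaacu
mmu-miR-485-3p: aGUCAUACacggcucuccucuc
Among 76 mature arms of the 40 microRNA genes there were 74 distinct seeds.

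Mir329 read 5.98, 6.41 and 6.20 in the controls against 6.92, 7.44 and 7.31 in the mutants. The difference was 1.03 or 2.04-fold (limma adjusted p = 0.00516). Mir485 read 6.27, 6.20 and 6.23 in the controls against 6.64, 6.85 and 6.77 in the mutants. The difference was 0.52 (adjusted p = 0.00329). These were the only 2 of the 5 whose calls held with each single array left out, with adjusted p up to 0.0297 and 0.0223. Mir300 read 5.42, 5.71 and 5.68 in the controls against 6.21, 7.12 and 6.44 in the mutants (0.99, adjusted p = 0.0282, and up to 0.116 with an array left out). All 3 control values of Mir300 lay within the range of the olfactory receptor genes, so the size of its difference is uncertain. Mir411 (0.65) and Mir379 (0.54) had means within the range of the olfactory receptor genes, and their adjusted p reached 0.0825 and 0.137 with an array left out. Mir382 had the largest difference of the region (1.04) but did not pass (adjusted p = 0.0502), with mutant 2 far above the others at 8.27. Labelling was primed with poly(T), which favours RNA with a poly(A) tail, and hairpins and mature microRNAs have none, so these values are not measurements of the mature microRNAs.

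**Figure D4:**
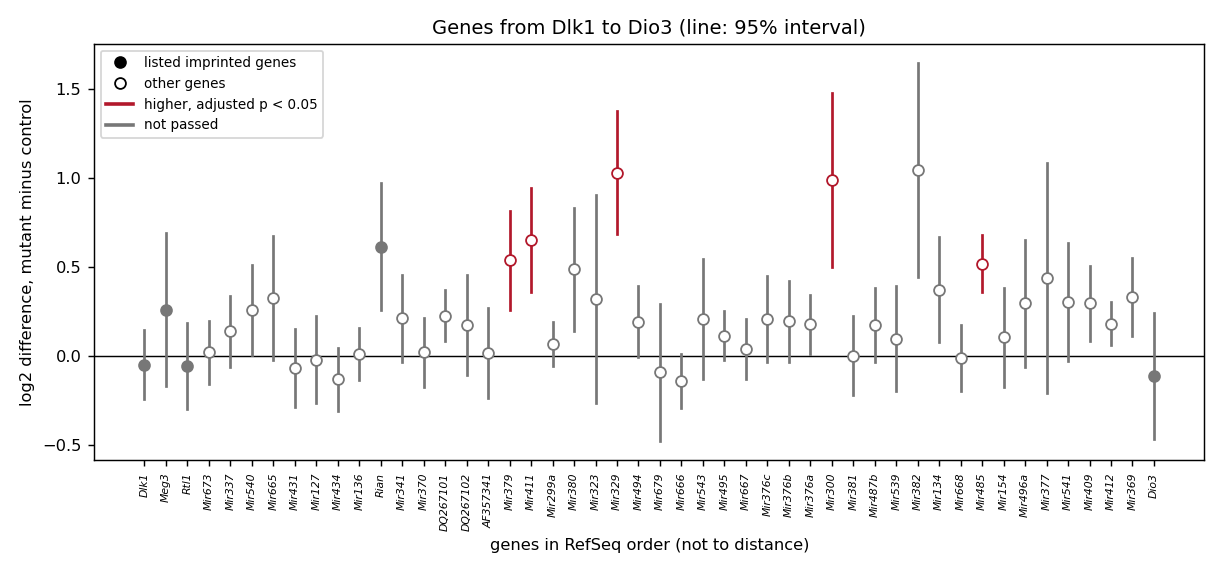
Log2 difference, mutant minus control, with its 95% interval for 48 genes from Dlk1 to Dio3 in RefSeq order, with the listed imprinted genes as filled points. Most noncoding genes in the middle lie above 0, up to 1.04. The intervals of the protein-coding genes Dlk1 (-0.05), Rtl1 (-0.05) and Dio3 (-0.11) include 0, as do those of many noncoding genes.

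Besides Cdkn1c, the growth genes Igf2, Igf2r, Grb10 and Plagl1 did not pass. Of the 16 members above the 90th percentile of mean level over all genes, Peg10, Nnat and Cdkn1c passed and 13 did not. Igf2, the fetal growth factor gene, read 12.46, 12.44 and 12.49 in the controls against 12.44, 12.23 and 12.35 in the mutants (-0.12 ± 0.07, adjusted p = 0.372, interval -0.28 to 0.03). Its clearing receptor gene Igf2r was at -0.03 ± 0.08, and Grb10, which damps insulin and IGF signalling, at -0.12 ± 0.06 (adjusted p = 0.322), with the mutants below the controls. Plagl1, a zinc finger factor gene of the same growth network, was at 0.03 ± 0.06 and Mest, a hydrolase-like gene abundant in mesenchyme, at -0.0015 ± 0.0527 (interval -0.12 to 0.12). Of Mest's neighbours, the coatomer gene Copg2 was at -0.04 and Klf14, which encodes a zinc finger factor, at -0.0016.

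The remaining domains held no call. In the Peg3 domain the zinc finger gene Peg3 was at 0.02, Usp29 at 0.03 and Zim1 at 0.05. In the Snrpn domain, whose human counterpart is lost in Prader-Willi syndrome, the neuronal growth suppressor gene Ndn was at 0.12 ± 0.05 (adjusted p = 0.24). It read 11.16, 11.14 and 11.12 in the controls against 11.28, 11.25 and 11.25 in the mutants, without overlap. Magel2 was at 0.07, Peg12 at -0.06 and the ubiquitin ligase gene Mkrn3 at -0.01. The feature shared by Snurf and Snrpn read 8.37, 8.26 and 8.30 in the controls against 8.18, 8.10 and 8.11 in the mutants, and that shared by Gnas and its antisense partner 10.97 ± 0.02 (SD, n = 3) and 10.94 ± 0.06. The feature that carries Ube3a among 4 symbols read 9.21 ± 0.04 and 9.48 ± 0.16, and no value is assigned to Ube3a from it.

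Impact, a regulator of the translation kinase GCN2, read 9.43, 9.47 and 9.43 in the controls against 9.59, 9.58 and 9.59 in the mutants, a separation of 0.15 ± 0.05 that was not called (adjusted p = 0.145). Nap1l5 was at -0.06, Mcts2 at 0.02 and the Ras activator gene Rasgrf1 at -0.11, and none passed. The intervals of 35 of the 39 members that did not pass lay within 1.5-fold in both directions, of which 6 (Calcr, Ascl2, Dio3, Usp29, Mkrn3 and Rasgrf1) had means within the olfactory receptor range, where a narrow interval says little about the gene. Those of Meg3, Rian, Ddc and Gatm reached past it.

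Some members varied most among the mutants. Ddc, which encodes the decarboxylase that makes dopamine and serotonin and is read from the paternal copy in heart, read 7.91, 7.92 and 7.76 in the controls against 8.98, 8.39 and 7.72 in the mutants (0.50 ± 0.27, adjusted p = 0.364). The proteoglycan gene Dcn read 11.23, 11.12 and 11.34 in the controls against 11.79, 11.20 and 11.43 in the mutants (0.24 ± 0.14, adjusted p = 0.401). Gatm, which encodes an enzyme of creatine synthesis, read 8.90, 8.69 and 8.49 in the controls against 9.11, 8.36 and 8.30 in the mutants (-0.10 ± 0.21, adjusted p = 0.854). All 3 genes were highest in mutant 1, the array with the raised heart muscle genes, and the part of that tissue in their values was not tested. Peg10 was also highest in mutant 1, and the calls of Asb4, Peg10 and Nnat held without it.

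Genes that establish, read or protect imprints were followed as a list of 30, of which 29 were measured. Of these, 2 were higher (6.90%, against 3.84% of all genes) and 0 lower (against 3.83%), a share of calls near the 7.66% of all genes. No call was made for the other 27, and the median was 0.03. Dnmt3b, a de novo DNA methyltransferase, rose by 0.28 ± 0.05 (adjusted p = 0.0199), from 7.41 ± 0.04 (SD, n = 3) to 7.69 ± 0.04. Arid4a, a chromatin gene that acts on the Prader-Willi imprint, rose by 0.45 ± 0.09 (adjusted p = 0.0233). The maintenance methyltransferase gene Dnmt1 was at 0.05, Zfp57 at 0.17 and Trim28 at -0.02, none of them past the threshold and all named after their values were seen. Of 11 genes that act directly with the imprinted growth factors, 9 were measured. Of these, 1 was higher and 1 lower, where 3.84% of all genes were higher and 3.83% lower. The groups did not overlap for 8 of the 9 (88.9%, against 25.9% of all genes), 4 with the mutants above and 4 below. Igf2bp1, which encodes a fetal protein that binds Igf2 messages, rose by 0.56 ± 0.07 (adjusted p = 0.00206), and the related growth factor gene Igf1 fell by 1.04 ± 0.20 (adjusted p = 0.0166).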

How the data were processed

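Gene expression was measured on 6 single-colour whole-transcript arrays of whole embryonic lung, 3 control and 3 mutant. The authors deposited log2 values, for which the submitters' processing notes name oligo, RMA (robust multi-array average) and limma. Their settings and the genome build: not given in the sources used here. Array summaries of this kind can compress the changes of dim genes. No detection calls are given, and the number of arrays limits precision. Features with 1 symbol in the platform annotation were kept, and a gene with several was represented by the brightest over the 6 arrays. Log2 values were compared with limma's lmFit and eBayes (version 3.58.1, under R 4.3.3, genotype only, two-sided, Benjamini-Hochberg over 19946 genes, threshold 0.05), a procedure also tested on simulated data. Replicates are embryos per the series' design text. Each p-value weighs a group difference against the spread between these samples, with the variance moderated over all genes tested. Members, domains and lists were chosen with earlier results of these data known. Named genes are every member past the threshold, all members of the Peg10 domain, the largest difference of each other domain and up to 4 called genes per list, with other members by difference. Sequences come from RefSeq tables (GRCm38.p6), used otherwise only for names and gene order. Alternatives were other scalings, filters, feature rules, variance models, thresholds, the replicate block and each array left out.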

Additional observations from a re-analysis of the deposited data

How the results depend on the processing

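Under 14 alternatives, Asb4, Peg10 and Nnat kept their direction and their calls. The count of members higher in mutants ranged from 2 to 4 and of members lower from 1 to 2 with single arrays left out, and requiring at least 1.5-fold left 1 lower. The members added were Rian and Ddc, both past the threshold without mutant 3 (adjusted p = 0.0318 and 0.0353). Rian also passed under both scalings, without dim genes and with trend and robust moderation (adjusted p 0.0393 to 0.0415). Cdkn1c was lost under median centring (-0.29, adjusted p = 0.0578), array weights (-0.25, adjusted p = 0.053) and the replicate block (adjusted p = 0.0684). The replicate numbers were not taken to pair samples, since same-numbered arrays' deviations correlated at -0.07, 0.05 and 0.15 and control 1 correlated best with mutant 2. With the replicate block 2 members were higher and 2 lower, and 1137 of all genes passed against 1528. Leaving out arrays moved that total to between 774 and 1745, and requiring 1.5-fold to 549.

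The count of 5 higher genes between Dlk1 and Dio3, whose alternatives were added after seeing the data, was 2 to 8 with arrays left out. It was 2 without control 1, control 2, control 3 or mutant 3 and 8 without mutant 2. It was 3 without dim genes and at 1.5-fold, 8 with trend and robust moderation, and 9 at a threshold of 0.1.

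Differences near 0 of members that did not pass changed sign. Tfpi2 was at -0.016 and -0.0098 after median centring and quantile normalization, Mcts2 at -0.0014 and -0.0029, and Klf14 and Mcts2 at 0.033 and -0.082 with array weights. With arrays left out the ranges were -0.021 to 0.038 for Tfpi2, -0.022 to 0.016 for Mest, -0.037 to 0.062 for Klf14, -0.107 to 0.014 for Nap1l5, -0.126 to 0.072 for Tssc4, -0.089 to 0.043 for Igf2r, -0.105 to 0.029 for Dlk1, -0.130 to 0.066 for Rtl1, -0.0013 to 0.066 for Peg3, -0.0050 to 0.134 for Blcap, -0.117 to 0.107 for Mcts2, -0.055 to 0.016 for Mkrn3 and -0.364 to 0.043 for Gatm. The cause was not tested.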
